A study of Mus musculus with 20 samples.

Results

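The 9 genes described here encode the core of antigen presentation by the major histocompatibility complex (MHC) in the mouse. They were picked by name, as the rows of the count table whose Ensembl IDs belong to the class I genes H2-D1, H2-K1 and B2m, the peptide transporter genes Tap1 and Tap2, and the class II genes Cd74, H2-Aa, H2-Ab1 and H2-Eb1, out of 29200 gene IDs in all. Their levels were followed across the cerebella of 20 male C57BL6/N mice in 4 groups of 5, namely WT/WT and 304Q/304Q mice of 2 months and of 12 months. The 304Q/304Q mice carry an expanded CAG repeat, interrupted by CAA codons and named 304Q by its length, in both alleles of the mouse ataxin-3 gene. The gene stays under its own promoter, and the mice descend from 1 founder line. They are a knock-in model of spinocerebellar ataxia type 3 (SCA3), and the WT/WT mice carry no expansion. In the genotype field of the labels the WT/WT mice are given as wild-type for ataxin-2, whereas the series names the ataxin-3 locus. Every library was made from poly(A) RNA of the whole cerebellum, so fewer or more cells of a type and less or more RNA per cell cannot be told apart in any value below.

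MHC class I molecules stand on nearly all nucleated cells and show peptides of the cell's own proteins to CD8+ T cells. The heavy chain binds B2m, and the peptides come from the proteasome and enter the endoplasmic reticulum through the transporter made of Tap1 and Tap2. MHC class II molecules show peptides of ingested proteins to CD4+ T cells. Their alpha and beta chains assemble on the invariant chain Cd74, which proteases such as cathepsin S trim away before a peptide is loaded. In the healthy brain class I levels are low in neurons, and class II is found mainly on microglia and on the macrophages and dendritic cells at the borders of the brain.

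Apart from B2m (chromosome 2, 122147686 to 122153083, plus strand) and Cd74, the members lie in the MHC on chromosome 17 of GRCm38. H2-K1 spans 33996017 to 34000347 on the minus strand and H2-D1 35262730 to 35267499 on the plus strand, at either end of the others. Tap1 (34187553 to 34197225) and Tap2 (34203527 to 34216321) lie on the plus strand, as do H2-Ab1 (34257689 to 34269419) and H2-Eb1 (34305867 to 34316674), while H2-Aa (34282744 to 34287823) lies on the minus strand. B2m overlaps Patl2, Tap1 overlaps Psmb9 and Tap2 overlaps Gm15821 and Gm20496, in each case on the opposite strand. The libraries were stranded, but whether the counting used the strand is not given in the sources used here, so reads of these pairs may be shared.

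The promoters of these genes are shown because class I and class II genes are known to share a module for their transcription, in which an X2 box resembling a cyclic AMP response element (core TGACG) stands upstream of a Y box that binds NF-Y (core CCAAT). RefSeq promoters on GRCm38.p6 were at hand for 6 of the 9 members. Below are 200 bases each, from base 205 to base 6 before the annotated start, with the matches to the 4 motifs searched in capitals. The motifs, sought on both strands, were CCAAT, the X2 core TGACG, the interferon-type element GAANNGAAA and the kappa B-like GGGGATTCC. H2-K1 (chr17:34000353-34000552, minus strand) and B2m (chr2:122147482-122147681, plus strand) stand for class I, and H2-Aa (chr17:34287829-34288028, minus strand) and H2-Eb1 (chr17:34305662-34305861, plus strand) for class II.
H2-K1: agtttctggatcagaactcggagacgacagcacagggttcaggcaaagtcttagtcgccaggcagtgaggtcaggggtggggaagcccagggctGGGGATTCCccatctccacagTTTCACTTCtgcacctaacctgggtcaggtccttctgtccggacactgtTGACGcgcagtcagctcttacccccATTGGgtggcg
B2m: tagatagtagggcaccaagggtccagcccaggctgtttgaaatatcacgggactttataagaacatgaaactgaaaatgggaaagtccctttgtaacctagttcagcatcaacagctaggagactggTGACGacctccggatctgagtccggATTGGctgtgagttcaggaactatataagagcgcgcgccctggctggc
H2-Aa: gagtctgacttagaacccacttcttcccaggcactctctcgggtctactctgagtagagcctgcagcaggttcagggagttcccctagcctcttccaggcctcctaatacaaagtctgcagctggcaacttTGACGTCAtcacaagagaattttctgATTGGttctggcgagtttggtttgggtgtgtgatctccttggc
H2-Eb1: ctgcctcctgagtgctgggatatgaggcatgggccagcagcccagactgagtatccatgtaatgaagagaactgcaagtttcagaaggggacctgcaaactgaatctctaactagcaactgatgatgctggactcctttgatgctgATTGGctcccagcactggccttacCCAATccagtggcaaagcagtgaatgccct

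Over the 250 bases before the start, CCAAT was found in all 6 of these promoters and in 33.8% of the 32851 promoters of the table, and TGACG in 5 of 6 and in 17.8%. The pair at a fixed spacing was rarer. In H2-D1, H2-K1 and B2m the first base of TGACG stood 25 bases upstream of the first base of CCAAT on the other strand, and in H2-Aa 26 bases. Of all promoters, 0.0822% (27, with these 4 members among them) held the pair at 25 or 26 bases. The spacing and orientation counted are those that these members show, so the share is a description and not a test. H2-D1 and H2-K1 alone among the 6 held the exact strings GAANNGAAA and GGGGATTCC, which occurred in 6.31% and 0.213% of all promoters. Other spellings of such elements were not sought, among them the gaaactgaaa in the B2m stretch above. A promoter without a match here may therefore still hold such an element. In H2-Aa the TGACG matches on the 2 strands overlap. These are matches of letters, not measured binding.

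The level of the members differed widely within the cerebellum. Levels were taken in CPM (counts scaled to library size) per kilobase of exon, so that genes of unequal length can be compared. The length was that of all annotated exons of a gene together, from 860 bases for B2m to 5476 for Tap1. These may include exons that are little used here, so the order depends on the annotation. B2m stood highest with a mean of 172 over the 20 mice, followed by H2-D1 with 54.4 and H2-K1 with 11.2. Cd74 had 3.28 and Tap2 2.61, and the lowest were H2-Eb1 (0.793), H2-Ab1 (0.688), Tap1 (0.536) and H2-Aa (0.456). The light chain B2m was thus sequenced at a higher level per length than either heavy chain in each of the 4 groups, and the invariant chain Cd74 at a higher level than the alpha and beta chains it escorts. Within each group the ranges of B2m, H2-D1 and H2-K1 overlapped neither with each other nor with any other member. Cd74 and Tap2 overlapped in each group but the 304Q/304Q mice of 12 months, where Cd74 lay between 4.79 and 7.28 and Tap2 between 3.20 and 4.42 CPM per kilobase. The 4 lowest overlapped within every group, except that H2-Eb1 stood above H2-Aa in WT/WT mice of 2 months and above Tap1 in 304Q/304Q mice of 12 months, so their order is mostly not set by these data.

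**Figure D1:**
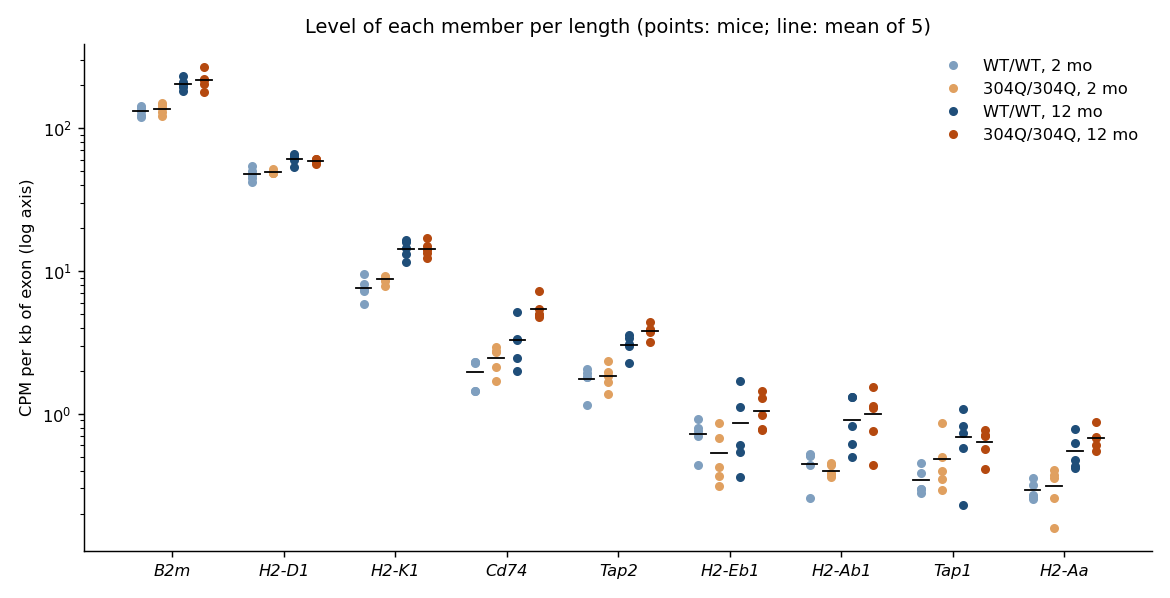
Level of each member in CPM per kilobase of exon, on a log axis, with 1 point per mouse, a line at the mean of 5 mice and a color for each group. B2m, H2-D1 and H2-K1 stand apart from one another, and H2-Eb1, H2-Ab1, Tap1 and H2-Aa overlap near the bottom.

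Of the 9 members, 5 (H2-D1, H2-K1, B2m, Tap2 and Cd74) reached the mean of 50 counts over the 20 libraries that 12153 genes passed. They were tested with edgeR's quasi-likelihood method, and a gene was called when its adjusted p was at most 0.05 and its log2 fold change at least 0.5 in either direction. The other 4 had means of 21.5 to 40.9 counts and were tested on their own. Library totals ran from 11385380 to 27636687 counts, with a median of 13522932. Transthyretin (Ttr), made by the choroid plexus, stood between 374 and 2009 CPM in 6 libraries and between 1.04 and 18.9 CPM in the other 14. These 6 were 1 of the 304Q/304Q mice of 2 months, 3 of the WT/WT mice of 12 months and 2 of the 304Q/304Q mice of 12 months, and results are given with and without them where they matter. Ataxin-3 transcripts themselves were lower by 0.54 on the log2 scale in 304Q/304Q mice at 2 months without passing the test (edgeR adjusted p = 0.0916), and a lengthened repeat need not alter the count, so this does not check the labels.

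At 12 months the class I genes were higher than at 2 months in both genotypes, and none of them was called between genotypes at either age. H2-K1, a classical class I heavy chain, had normalised read counts of 246, 300, 311, 339 and 399 in the WT/WT mice of 2 months and 481, 604, 688, 671 and 548 in those of 12 months. In the 304Q/304Q mice the counts were 330, 383, 381, 355 and 371 at 2 months and 511, 623, 706, 556 and 589 at 12 months. Every old mouse lay above every young mouse of its genotype. The log2 fold change of H2-K1 with age was 0.90 in WT/WT (standard error 0.113, edgeR adjusted p = 2.27e-05), a fold of 1.87, and 0.72 in 304Q/304Q (standard error 0.112, edgeR adjusted p = 0.000131), a fold of 1.64.

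B2m, the light chain shared by class I and class I-like molecules, had counts of 1603, 1694, 1761, 1460 and 1517 in young and 2593, 2217, 2443, 2814 and 2370 in old WT/WT mice. In 304Q/304Q mice it had 1486, 1762, 1592, 1687 and 1843 at 2 months and 2473, 2710, 3274, 2641 and 2174 at 12 months. Again no old mouse overlapped with a young one of its genotype. The rise was 0.63 in WT/WT (95% confidence interval 0.45 to 0.81, edgeR adjusted p = 6.62e-05) and 0.67 in 304Q/304Q (0.49 to 0.84, edgeR adjusted p = 1.49e-05).

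H2-D1, the other classical heavy chain and the more abundant one, had smaller fold changes. Its counts were 1645, 1542, 1715, 1987 and 1841 in young and 1944, 2286, 2407, 2357 and 2186 in old WT/WT mice, and 1 old mouse fell below the highest young one. In 304Q/304Q mice the young had 1820, 1770, 1790, 1906 and 1768 and the old 2172, 2198, 2213, 2225 and 2066, with no overlap. The log2 fold changes of 0.36 and 0.26 passed the test on the adjusted p (0.000819 and 0.00774 by edgeR) but stood below the fold threshold, so H2-D1 was not called. H2-D1 and H2-K1 are near-identical to each other and to other class I genes over part of their length, and reads may have been split among them. When the counts of 8 such genes were summed, the age difference was 0.49 in WT/WT and 0.38 in 304Q/304Q, and the difference between genotypes was 0.08 at 2 months and −0.03 at 12 months.

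**Figure D2:**
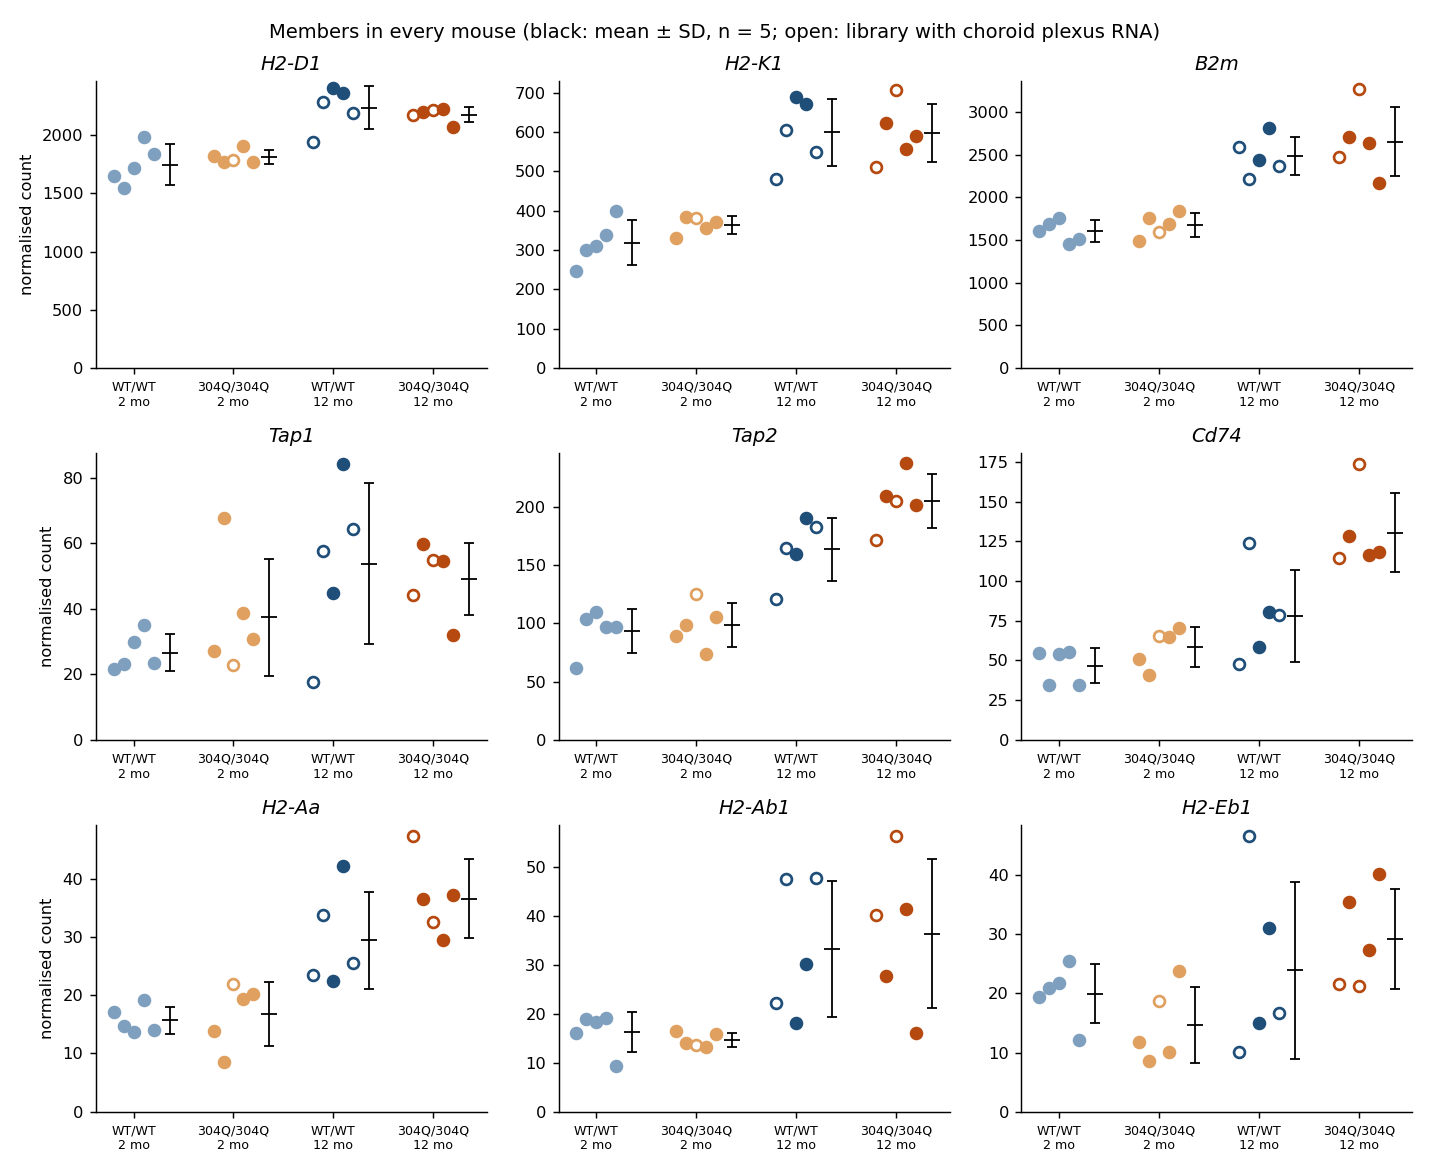
Normalised read count of each member in every mouse, in 4 groups of 5, with the mean ± SD in black and open points for the 6 libraries with choroid plexus RNA. H2-K1, B2m and Tap2 show no overlap between ages in either genotype, and Cd74 of the 304Q/304Q mice of 12 months lies above all but 1 of the WT/WT mice of that age.

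Tap2, 1 of the 2 subunits of the peptide transporter, showed the same direction. WT/WT mice had 61.7, 104, 110, 96.7 and 97.1 counts at 2 months and 121, 164, 159, 190 and 183 at 12 months. In 304Q/304Q mice the young had 89.3, 98.7, 125, 74.1 and 106 and the old 172, 209, 205, 238 and 202. The ages did not overlap in either genotype. Tap2 rose by 0.80 in WT/WT (standard error 0.158, edgeR adjusted p = 0.00254) and by 1.06 in 304Q/304Q (standard error 0.155, edgeR adjusted p = 6.57e-05). At 12 months 4 of 5 304Q/304Q mice were above every WT/WT mouse, but the difference of 0.32 (95% confidence interval 0.01 to 0.64) was not called (edgeR adjusted p = 0.168). Its partner Tap1 had 16 to 84 counts a library and a wider spread. Tap1 means were 26.6 ± 5.68 and 53.8 ± 24.6 in young and old WT/WT mice and 37.4 ± 17.8 and 49.1 ± 11.1 in young and old 304Q/304Q mice (SD, n = 5). The ages overlapped in both genotypes.

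Cd74, the invariant chain of class II (chromosome 18, 60803848 to 60812652, plus strand), was the only member called between genotypes. At 12 months the WT/WT mice had 47.9, 124, 58.8, 80.2 and 78.8 counts and the 304Q/304Q mice 114, 128, 174, 117 and 118. The lowest 304Q/304Q mouse stood above 4 of the 5 WT/WT mice, and the groups overlapped through the WT/WT mouse with 124. The difference was 0.73 on the log2 scale (95% confidence interval 0.29 to 1.18), a fold of 1.66, with an edgeR adjusted p of 0.0256. The WT/WT mouse with 124 counts and the 304Q/304Q mouse with 174 are both libraries with choroid plexus RNA. Without the 6 such libraries, which left 58.8 and 80.2 counts in 2 WT/WT mice and 117 to 128 in 3 304Q/304Q mice, the difference was 0.80 and the call was lost (edgeR adjusted p = 0.0944). The study used DESeq2 with surrogate variables, without giving their number, and lists Cd74 among its differentially expressed genes. With 3 surrogate variables, a number chosen here, the difference was 0.69 with an adjusted p of 0.0506 by DESeq2 and 0.68 with 0.0776 by edgeR.
The call was also lost when WT/WT replicate 1, 3 or 5 or 304Q/304Q replicate 3 of 12 months was left out, over which the difference stayed between 0.60 and 0.74.

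With age Cd74 rose in both genotypes. At 2 months the counts were 54.8, 34.6, 53.9, 55.2 and 34.5 in WT/WT and 50.8, 40.8, 65.6, 64.9 and 70.5 in 304Q/304Q mice. The old 304Q/304Q mice all lay above the young ones, and the rise of 1.15 (95% confidence interval 0.70 to 1.60, edgeR adjusted p = 0.00105), a fold of 2.22, was called in every other setting that tested it. Among the WT/WT mice 1 old mouse fell among the young, and the rise of 0.75 (0.27 to 1.23, edgeR adjusted p = 0.0363) was less firm. It was 0.58 without the choroid plexus libraries (edgeR adjusted p = 0.152), 0.56 with Ttr as a covariate (edgeR adjusted p = 0.229) and 0.52 without WT/WT replicate 2 of 12 months (edgeR adjusted p = 0.134).
With the replicate number as a block it was 0.74 (edgeR adjusted p = 0.0564), and the call was also lost without WT/WT replicate 1, 2, 3 or 5 of 2 months or replicate 4 or 5 of 12 months (0.66 to 0.82). It was lost with surrogate variables too, with 0.73 in DESeq2 (adjusted p = 0.0671) and 0.73 in edgeR (adjusted p = 0.108), and with the other genotype left out of the fit (0.75, edgeR adjusted p = 0.0905). Of 10 other settings, 4 kept the call. Between genotypes at 2 months the difference of Cd74 was 0.33 (95% confidence interval −0.15 to 0.81), not called.

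The class II alpha and beta chains were sparsely counted. H2-Aa, the alpha chain of the A molecule, had 17.1, 14.7, 13.8, 19.1 and 14.0 normalised counts in young and 23.4, 33.7, 22.4, 42.1 and 25.5 in old WT/WT mice. Its counts were 13.9, 8.58, 21.8, 19.3 and 20.3 in young and 47.3, 36.5, 32.5, 29.4 and 37.1 in old 304Q/304Q mice. The ages did not overlap in either genotype. The old mice were higher in mean log2 CPM by 0.80 (WT/WT) and 1.08 (304Q/304Q), each with a 2-sided exact permutation p of 0.00794, the smallest that 5 against 5 mice allow, and 0.0635 after adjustment over 16 tests (4 members in 4 comparisons). With 16 tests, 2 at the smallest p cannot pass the threshold.

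H2-Ab1, the beta chain that pairs with H2-Aa, had means of 16.3 ± 4.10 and 33.2 ± 13.9 in young and old WT/WT and 14.6 ± 1.46 and 36.3 ± 15.2 in young and old 304Q/304Q mice (SD, n = 5). In each genotype 4 of 5 old mice stood above all young ones. The differences of 0.88 and 1.11 in log2 CPM had exact permutation p-values of 0.0317 and 0.0159, adjusted 0.102 and 0.0846. H2-Eb1, the beta chain of the E molecule, had 19.96 ± 4.91 and 23.9 ± 14.9 in WT/WT and 14.6 ± 6.43 and 29.1 ± 8.41 in 304Q/304Q mice. The gene of its alpha partner, H2-Ea-ps, named as a pseudogene, was at 0 counts in 17 of the 20 libraries. The age difference of H2-Eb1 was 0.95 in 304Q/304Q (exact permutation p = 0.0238, adjusted 0.0952) and 0.09 in WT/WT (exact permutation p = 0.841). Of the 16 tests, 5 had an unadjusted permutation p under 0.05 and none passed after adjustment.

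When edgeR was run over all 15194 genes that averaged 10 counts or more, H2-Aa was called higher with age in WT/WT (0.89, edgeR adjusted p = 0.0415), where 1.45% of those genes were called higher. With no filter but 1 count that call was lost (0.90, edgeR adjusted p = 0.111). In 304Q/304Q mice H2-Aa (1.13, edgeR adjusted p = 0.00898) and H2-Ab1 (1.29, edgeR adjusted p = 0.0157) were called, against 1.55% of genes. Tap1 in WT/WT (1.01, edgeR adjusted p = 0.0538) and H2-Ab1 in WT/WT (1.02, edgeR adjusted p = 0.0537) came close to the threshold without passing it. No member below 50 counts was called between genotypes in that fit. The intervals there are wide, for instance −0.21 to 0.84 for H2-Aa and −0.78 to 0.51 for Tap1 at 12 months, so a difference of the size seen for Cd74 could not be told from none in H2-Aa.

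In counts, 4 of the 5 members tested were called higher at 12 months in WT/WT, where 1.40% of all genes tested were, and 4 of 5 in 304Q/304Q, where 1.37% were. The median log2 fold change of the 5 was 0.75 and 0.72, against 0.00 over all genes in either genotype. The groups did not overlap, with the old mice higher, for 3 of 5 in WT/WT against 3.64% of genes, and for 5 of 5 in 304Q/304Q against 3.60% of genes. Between genotypes 0 of 5 were called at 2 months (0.00823% of genes) by edgeR and by DESeq2, with 0 at an unadjusted p under 0.05, and 1 of 5 at 12 months (3.09% of genes), and for 0 of 5 did the groups of 12 months stand apart, against 8.94% of genes. The 2 genotypes share no mice in the age comparisons, whereas each age comparison shares a group of mice with the genotype comparisons.
The labels do not say whether mice of both ages were handled together, and age and such a difference cannot be told apart.

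**Figure D3:**
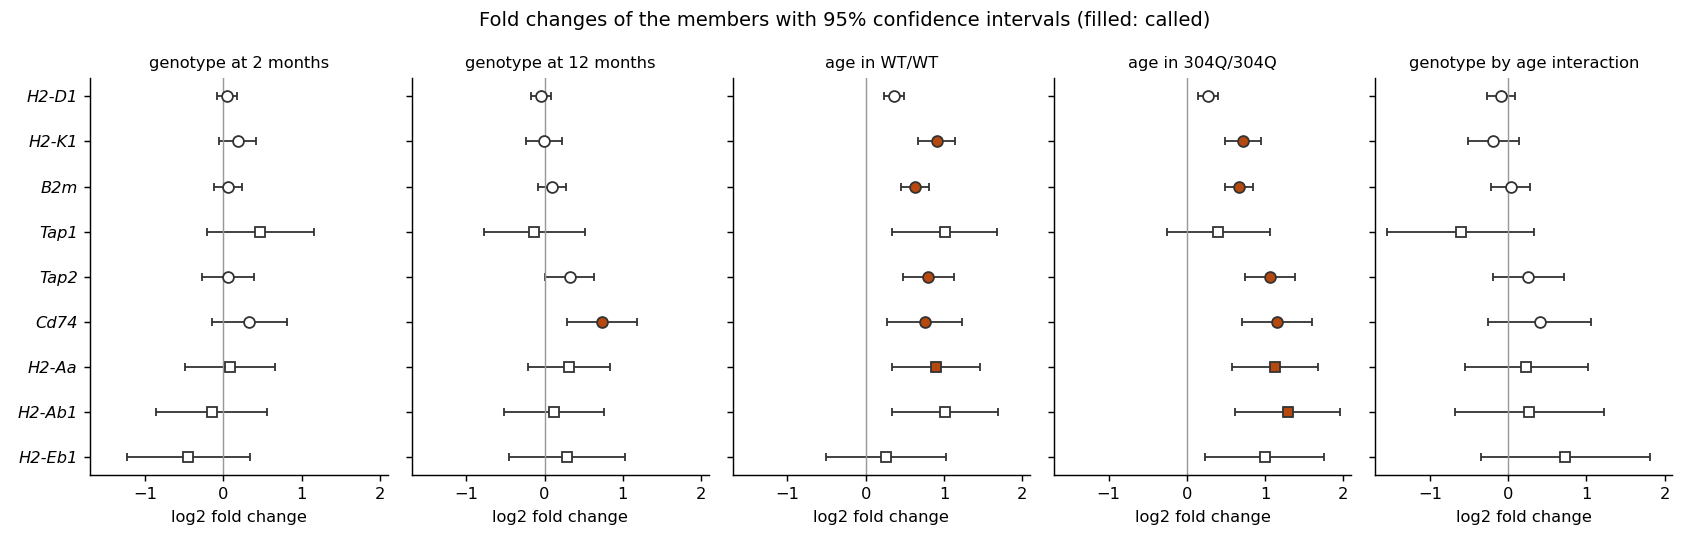
Log2 fold changes of the 9 members with 95% confidence intervals in the 5 comparisons. Circles are members at or above a mean of 50 counts, squares come from the fit down to a mean of 10 counts, and filled symbols were called. The age estimates lie to the right of 0 for all members, with intervals that cross 0 for H2-Eb1 in WT/WT and Tap1 in 304Q/304Q. Among the genotype comparisons Cd74 at 12 months is the filled one.

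The interaction of genotype and age asks whether the rise with age differed between genotypes. It was called for 0 of 5 members by edgeR and by DESeq2, with 0 at an unadjusted p under 0.05, against 0.938% of genes. The estimate was −0.09 for H2-D1, −0.19 for H2-K1 (95% confidence interval −0.52 to 0.14), 0.03 for B2m (−0.22 to 0.29), 0.26 for Tap2 (−0.20 to 0.72) and 0.40 for Cd74 (−0.25 to 1.06). The rise of Cd74 in 304Q/304Q mice was therefore not shown to differ from that in WT/WT mice. For the class I genes the intervals between genotypes in the main fit were narrow at 12 months, from −0.17 to 0.09 for H2-D1, −0.23 to 0.22 for H2-K1 and −0.08 to 0.27 for B2m. The estimates moved with the processing. Over 11 other settings they ran from −0.14 to −0.04 for H2-D1, −0.21 to −0.0003 for H2-K1 and −0.07 to 0.10 for B2m, and none was called.

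Within class II the mean proportion of invariant chain to the chains it escorts was higher in 304Q/304Q mice at both ages and nearly level between ages. Normalised counts of Cd74 per count of H2-Aa, H2-Ab1 and H2-Eb1 together were 0.904 ± 0.164 and 0.908 ± 0.108 in WT/WT mice of 2 and 12 months, and 1.29 ± 0.142 and 1.27 ± 0.195 in 304Q/304Q mice (SD, n = 5). At 2 months the lowest 304Q/304Q mouse (1.18) lay above the highest WT/WT mouse (1.04). At 12 months the ranges of 0.777 to 1.06 and 1.05 to 1.58 overlapped by 1 mouse at their ends. This ratio was formed after the values were seen and is given without a test. It depends on sparse counts in its denominator. Their means in WT/WT and 304Q/304Q mice of 2 months were 19.96 and 14.6 for H2-Eb1, 16.3 and 14.6 for H2-Ab1, and 15.7 and 16.8 for H2-Aa. B2m per count of H2-D1 and H2-K1 together was 0.788 ± 0.128 and 0.884 ± 0.122 in young and old WT/WT and 0.770 ± 0.0687 and 0.955 ± 0.109 in young and old 304Q/304Q mice, with overlap between all groups.

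Around the members, the other genes of the pathway were followed as lists. Of 12 genes for peptide loading and the immunoproteasome, 10 were tested. With age 0 were called higher and 1 lower in WT/WT, and 1 was called higher in 304Q/304Q mice. The gene called higher was Psme1, a subunit of the proteasome activator, with 0.66 (edgeR adjusted p = 0.00364) in 304Q/304Q. In WT/WT mice Psme1 had 0.45, under the fold threshold. The one called lower in WT/WT was Lnpep, an aminopeptidase used in cross-presentation (−0.77, edgeR adjusted p = 0.0320), and in 304Q/304Q it had −0.03. The median log2 fold change of the list with age was 0.19 in WT/WT and 0.09 in 304Q/304Q, against 0.00 over all genes. At 12 months none of the list was called between genotypes (3 at an unadjusted p under 0.05 by edgeR), and those with the lowest p were Psme1 (0.39, edgeR adjusted p = 0.0691), the chaperone Calr (−0.23) and the disulfide isomerase Pdia3 (−0.16).

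Among 12 other class I and class I-like genes 7 were tested, of which 3 rose with age in WT/WT and 1 in 304Q/304Q, with medians of 0.46 and 0.34. H2-Q4, a nonclassical heavy chain, rose by 1.28 in WT/WT (edgeR adjusted p = 0.00305) and by 0.997 in 304Q/304Q (edgeR adjusted p = 0.0119). H2-T23, which encodes the Qa-1 molecule, rose by 0.74 in WT/WT (edgeR adjusted p = 0.00246) and had 0.34 in 304Q/304Q (edgeR adjusted p = 0.176), and Hfe, a class I-like regulator of iron uptake, rose by 0.60 in WT/WT. None was called between genotypes (1 at an unadjusted p under 0.05 at 12 months by edgeR), and those with the lowest p at 12 months were Fcgrt, the neonatal Fc receptor (−0.19), H2-T23 (−0.21) and Mr1, which presents metabolites (0.18).
H2-Q6 and H2-Q7, named here after their values were seen, were low in young mice. H2-Q6 had 1.06 to 12.6 normalised counts in young and 28.9 to 93.2 in old WT/WT mice, and 4.11 to 17.7 in young and 45.8 to 71.0 in old 304Q/304Q mice. H2-Q7 had 2.09 to 10.3 and 14.9 to 48.8 in WT/WT, and 2.05 to 11.2 and 25.1 to 48.4 in 304Q/304Q mice. The ages did not overlap for either gene, and these genes too share sequence with H2-K1 and H2-D1.

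For class II loading 13 genes were in the table and 5 were tested. Of these, only Ctss, cathepsin S, which trims the invariant chain, was called, and it rose with age by 1.06 in WT/WT (edgeR adjusted p = 6.55e-08) and by 1.22 in 304Q/304Q (edgeR adjusted p = 2e-09). Its means were 326 ± 37.9 and 680 ± 56.1 in young and old WT/WT and 308 ± 33.3 and 717 ± 51.8 in young and old 304Q/304Q mice (SD, n = 5). In the fit down to a mean of 10 counts H2-DMb1, a chain of the H2-DM peptide exchanger, was called higher with age in WT/WT (1.83, edgeR adjusted p = 0.0147), where 1.15 to 6.53 counts at 2 months did not overlap with 9.99 to 22.8 at 12 months. In 304Q/304Q mice it had 1.003 (edgeR adjusted p = 0.172), with 3.52 to 11.4 and 9.97 to 32.5 counts. Between genotypes at 12 months Ctsl (0.13), Ctss (0.07) and H2-DMa (0.17) had the lowest p and none was called by edgeR (1 at an unadjusted p under 0.05).

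Transcriptional regulators of these genes were followed in the same way. Of 17 listed, 14 were tested, and with age 0 were called in WT/WT mice (5 at an unadjusted p under 0.05 by edgeR). Irf1, a factor induced by interferon gamma, had 0.39 in both genotypes and was not called, nor was Rfx5, a subunit of the X box complex (−0.15 and 0.00). Nlrc5, the class I transactivator, was below 50 counts, with 7.33 to 16.99 and 15.5 to 45.1 normalised counts in young and old WT/WT and 2.05 to 15.0 and 15.1 to 27.7 in young and old 304Q/304Q mice. Ciita, the class II transactivator, had 6.88 to 27.4 and 5.57 to 23.8 in WT/WT and 7.10 to 27.1 and 11.04 to 26.2 in 304Q/304Q mice, so its ages overlapped throughout. In the fit down to a mean of 10 counts Nlrc5 was called with age in 304Q/304Q (1.59, edgeR adjusted p = 0.0256) and not in WT/WT (1.05, edgeR adjusted p = 0.108), and Ciita in neither. Irf8, a factor of myeloid cells, was called in 304Q/304Q mice in that fit (1.07, edgeR adjusted p = 0.013).

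Between genotypes 1 regulator was called. Nfyb, the B subunit of NF-Y, which binds the CCAAT box shown above, had a mean of 227 ± 40.4 normalised counts at 12 months in WT/WT, against 388 ± 57.7 in 304Q/304Q mice (SD, n = 5), and its ranges of 188 to 280 and 312 to 447 did not overlap. It was higher by 0.77 (standard error 0.122, edgeR adjusted p = 0.000109) in 304Q/304Q at 12 months and by 0.07 at 2 months, and the interaction of 0.70 was called (edgeR adjusted p = 0.0316). The other subunits Nfya (0.32, edgeR adjusted p = 0.0417) and Nfyc (0.26, edgeR adjusted p = 0.0217) were also higher at 12 months by the adjusted p but below the fold threshold. CCAAT was found in all 6 member promoters at hand and in 33.8% of all promoters. Of these members, H2-D1, H2-K1 and B2m were tested in that fit and not called, and Tap1, H2-Aa and H2-Eb1 were below 50 counts. No promoter of Cd74 was at hand. The part of NF-Y in the members' values was not tested.

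**Figure D4:**
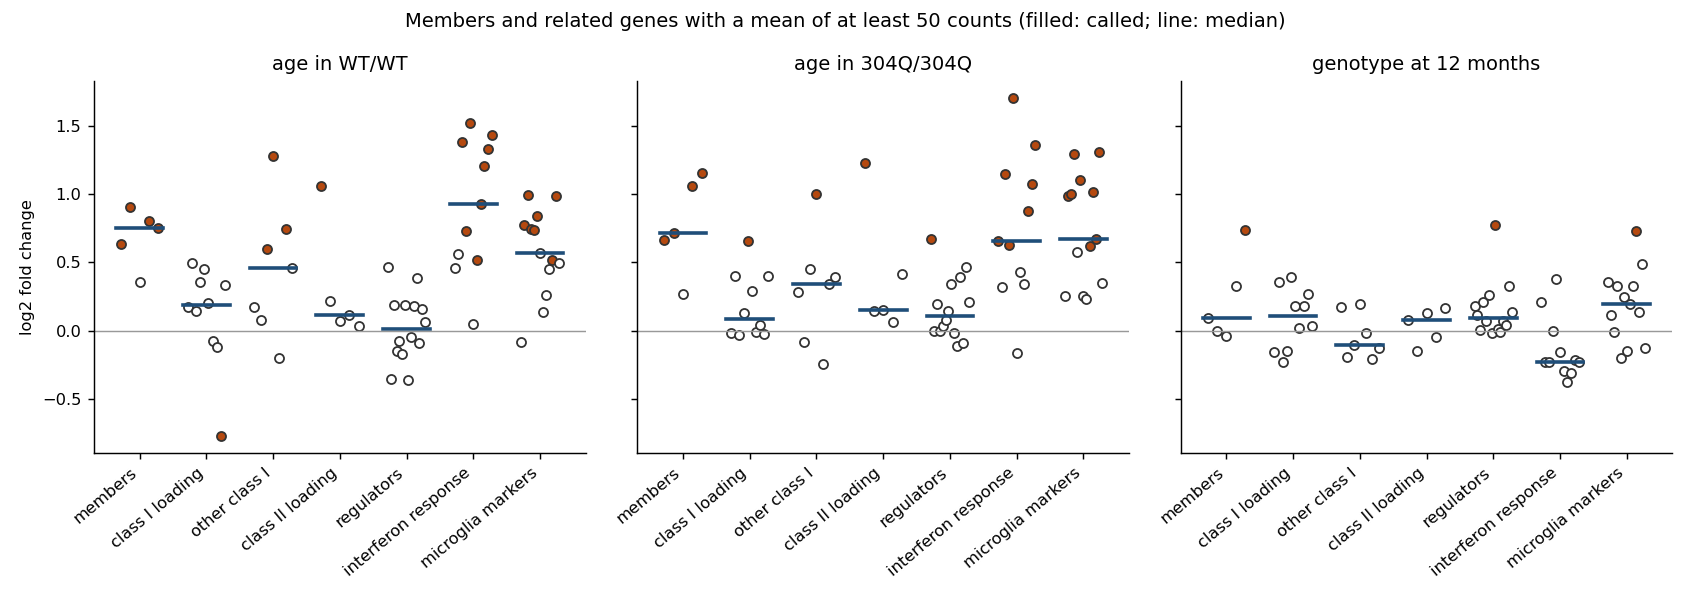
Log2 fold changes of members, pathway genes, interferon response genes and microglia markers that averaged 50 counts or more, in both age comparisons and between genotypes at 12 months. Points are genes, filled points were called, and lines are medians. With age the medians of members, interferon response genes and microglia markers lie above 0.5 in both genotypes, and between genotypes at 12 months no median passes 0.25.

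Many genes of the interferon response and most tested microglia markers rose with age. Of 17 interferon response genes 11 were tested, and 8 rose with age in WT/WT and 7 in 304Q/304Q, with medians of 0.93 and 0.66. In the fit down to a mean of 10 counts Usp18, Bst2, Igtp and Rtp4 of this list were also called higher in both. Between genotypes at 12 months 0 were called by edgeR (2 at an unadjusted p under 0.05) and the median was −0.23. Of 16 microglia markers 13 were tested, and 7 rose in WT/WT and 8 in 304Q/304Q with medians of 0.57 and 0.67. Those called in both genotypes included C1qa, C1qb, C1qc, Tyrobp and Trem2. Fcrls went the other way in WT/WT mice, with 51.2 ± 15.98 and 29.4 ± 6.22 counts at 2 and 12 months (SD, n = 5), and its fall was called in the fit down to a mean of 10 counts (−0.81, edgeR adjusted p = 0.0281). In 304Q/304Q mice it had 0.33 and was not called. Summed over the list, the markers had 2162 to 2543 and 3143 to 3739 normalised counts in young and old WT/WT and 2202 to 2408 and 3282 to 4239 in young and old 304Q/304Q mice.
The homeostatic marker P2ry12 was not called with age and had means of 136 and 128 in WT/WT and 137 and 164 in 304Q/304Q mice, while Cx3cr1 rose in 304Q/304Q (0.62) and Tmem119 in WT/WT (0.73), and Aif1 stayed between 1.76 and 29.4 counts.

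Set against the summed microglia markers, B2m overlapped between ages in both genotypes, with 69.6 ± 9.44 and 72.5 ± 7.54 counts per 100 marker counts in young and old WT/WT and 73.2 ± 5.95 and 68.8 ± 5.32 in young and old 304Q/304Q mice (SD, n = 5). H2-D1 had a lower mean proportion in old mice, with 74.9 ± 2.42 and 65.0 ± 4.52 in WT/WT and 79.2 ± 2.03 and 56.9 ± 4.51 in 304Q/304Q mice. H2-K1 had 13.7 ± 1.78 and 17.4 ± 1.89 in WT/WT and 15.9 ± 0.975 and 15.6 ± 1.78 in 304Q/304Q mice, so its mean was higher in old mice in WT/WT only. The means of Tap2 were higher in old mice of both genotypes, with 4.04 ± 0.825 and 4.75 ± 0.645 in WT/WT and 4.32 ± 0.869 and 5.37 ± 0.836 in 304Q/304Q mice, and its ages overlapped. Cd74 had 2.01 ± 0.483 and 2.29 ± 0.973 in WT/WT and 2.55 ± 0.518 and 3.38 ± 0.469 in 304Q/304Q mice. The markers in the sum moved unequally with age. In WT/WT mice the means of C1qa, C1qb and C1qc went from 299, 298 and 213 in young to 503, 508 and 425 in old. Those of P2ry12, Fcrls and Aif1 went from 136, 51.2 and 14.9 to 128, 29.4 and 10.7. The proportions therefore depend on which markers are summed, and the part of microglia in the members' rise was not tested.

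Beside the difference of Cd74 between genotypes at 12 months, 1 of 13 microglia markers tested was called, namely the lysosomal protein Cd68 (0.73, edgeR adjusted p = 0.00469), with 61.4 to 109 and 122 to 180 normalised counts. Itgax, a marker of dendritic cells that microglia also gain when activated, had 2.97 to 8.91 counts in WT/WT and 23.7 to 49.8 in 304Q/304Q mice of 12 months, and 0.00 to 5.29 in young mice. In the fit down to a mean of 10 counts Fcrls was higher (0.94, edgeR adjusted p = 0.00906) and Cd163, a marker of border macrophages, lower in 304Q/304Q (−1.23, edgeR adjusted p = 0.00780). The 8 border macrophage markers together had 118 to 175 counts in WT/WT and 79.7 to 125 in 304Q/304Q mice of 12 months, and Mrc1 overlapped. Of 5 blood genes 4 were called lower in 304Q/304Q at 12 months, among them the hemoglobin gene Hba-a1 (−1.002, edgeR adjusted p = 0.00244), and the 5 together had 1649 to 3502 counts in WT/WT against 1367 to 1588. Of the markers of resident cells, 2 of 5 of astrocytes, 2 of 5 of oligodendrocytes and 1 of 8 of cerebellar neurons were called lower in 304Q/304Q. None was called higher, but the estimates of 2 astrocyte markers and 1 neuron marker were above 0. The part of these cells in the Cd74 difference was not tested.

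Lymphocyte markers were low in every group and none reached the mean of 50 counts. The 4 B cell markers together had 4.16 to 28.7 and the 7 T and NK cell markers 1.02 to 29.9 normalised counts over all mice, and Cd3e was at 0 in 4 of the 20 libraries. Cd79a had 2.23 to 26.2 counts, a range that overlapped with those of H2-Ab1 and H2-Eb1. At 12 months the mean sum was higher in 304Q/304Q than in WT/WT for B cell markers (18.6 ± 6.09 against 10.7 ± 6.69) and for T and NK cell markers (15.03 ± 8.54 against 10.1 ± 3.72, SD, n = 5), with overlap in both, and their part in the members' values was not tested. The dendritic cell list summed to 1226 to 1652 counts, but its sum rested on Flt3 and Zbtb46, which were high in all groups (Flt3 400 to 547, Zbtb46 774 to 1134), and its 2 tested genes were not called, being under the fold threshold between genotypes at 12 months (Zbtb46 −0.28, edgeR adjusted p = 0.0135, and Flt3 −0.23, edgeR adjusted p = 0.0317). Summed endothelial markers had 3320 to 4069 counts over all mice and meningeal markers 1071 to 1543, with 0 called in any comparison by edgeR (3 and 1 at an unadjusted p under 0.05 between genotypes at 12 months), and Cldn5 had 207 to 463. Choroid plexus markers ran from 372 to 30560, and 2 of 5 tested were called higher with age in WT/WT.

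Within groups the members varied only loosely together. Over the 36 pairs, the correlation of log2 CPM after the group means were removed (20 mice) had a median Pearson's r of 0.208 and ranged from −0.174 to 0.684, with 30 positive. The highest was that of Cd74 with H2-Eb1 (r = 0.684, permutation p = 0.00655, adjusted 0.136, Spearman's coefficient = 0.633, permutation p = 0.00908, adjusted 0.198), and it was 0.456 without the 2 mice farthest from the median of Cd74. H2-D1 with H2-K1 had r = 0.617 (permutation p = 0.0265, adjusted 0.136), Spearman's coefficient = 0.609 (permutation p = 0.0165, adjusted 0.198) and r = 0.546 without 2 mice. Of the 36, 7 had an unadjusted p of r under 0.05 and none passed after adjustment. Shared reads between the heavy chains, and low counts of the class II chains, bear on these values.

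**Figure D5:**
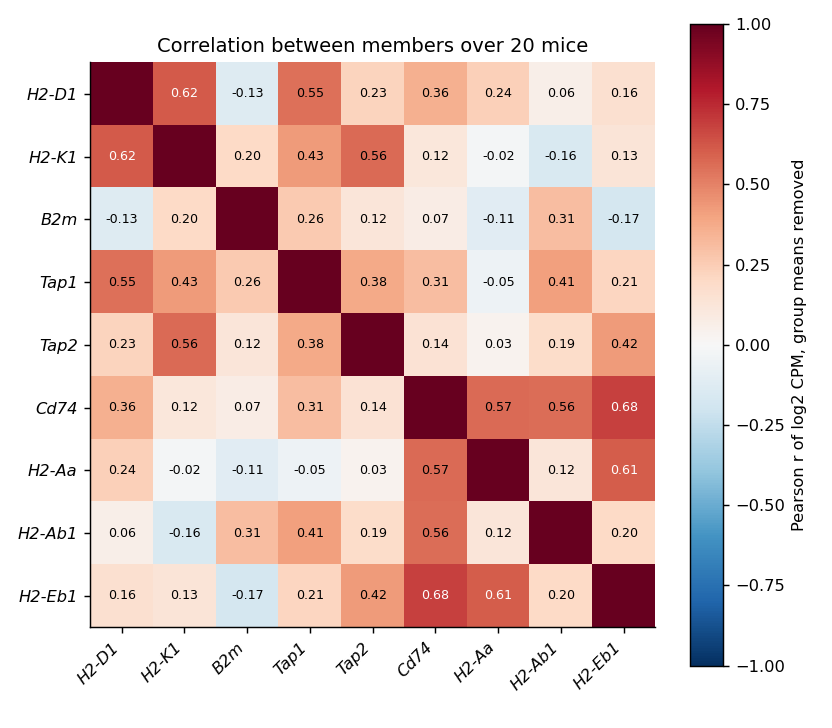
Pearson's r between members over 20 mice, from log2 CPM with group means removed, in a color scale from −1 to 1. Cd74 with H2-Eb1 (0.68) and H2-D1 with H2-K1 (0.62) are the highest of the 36 pairs, none of which passed the permutation test after adjustment.

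Across the 20 mice with group means left in, the genes whose log2 CPM most resembled the mean profile of H2-D1, H2-K1 and B2m were C1qc, a subunit of the complement component C1q (r = 0.962), Arhgef17, a guanine nucleotide exchange factor (0.957), Ctss (0.956), the interferon-inducible GTPase Irgm1 (0.956) and the complement gene C4b (0.953). Most like the profile of the 4 class II members were Tpbg (0.867), Pik3cd, the delta subunit of PI3 kinase (0.866), Lyz2, lysozyme of myeloid cells (0.853), Serping1, the inhibitor of C1 (0.843) and Hspa2, a heat shock protein (0.839). Means of C4b were 126 and 118 normalised counts in WT/WT and 304Q/304Q mice of 2 months and 392 and 482 at 12 months, and those of Lyz2 were 78.1, 81.8, 137 and 249 in the same order. The mice of these correlations share their age and genotype groups, so the values describe likeness over the 4 groups and carry no p.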

How the data were processed

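Poly(A) RNA of 20 cerebella was sequenced with a stranded kit. The authors aligned reads with STAR (version 2.4.5b in the submitters' processing notes) to GRCm38 and counted them per gene with Rsubread, and the deposited values are whole-number counts without normalization. Columns were matched to mice by the sample description, and 0 columns were left unmatched. Of 29200 gene IDs, 29138 had a symbol and 29150 a position in GENCODE M21. Replicates were separate mice, and no 2 of a group agreed within counting error (chi-square divided by its degrees of freedom 4.43 or more).

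Counts were scaled by TMM in edgeR 4.0.16 (R 4.3.3). All 12153 genes averaging 50 counts or more entered a quasi-likelihood fit with 4 groups, p-values were adjusted after Benjamini-Hochberg over all of them, and calls needed both an adjusted p up to 0.05 and a log2 fold change of 0.5 or more in size. Normalised read counts are counts at the mean scaled library size. On simulated counts of the 12153 genes for the genotype comparison at 12 months, edgeR recovered 200 of 200 changed genes with 1 other. These genes were changed 2-fold, and every gene was given the same spread between mice. Smaller changes, genes of wider spread and choroid plexus RNA were not simulated, so this checks the procedure and not its power for the members. Members under 50 counts were compared by 2-sided exact permutation of log2 CPM (prior count 2), and correlations by 100000 permutations within groups. Alternatives used DESeq2 1.42.0, sva 3.50.0 (3 surrogate variables) and other filters. The alternatives without the libraries of at least 100 CPM Ttr and with Ttr as a covariate were chosen after seeing the data. Replicate numbers were not used to pair mice across groups in the main fit. The members and gene lists were chosen with earlier results of these data known. Named beside the members are pathway genes called in any comparison, 5 regulators, the 3 genes of each pathway list with the lowest p at 12 months, defining cell markers and the 5 genes most like each profile. Some genes of the regulator and marker lists are not reported here.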

Additional observations from a re-analysis of the deposited data

Results flagged for a closer look

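Of 36 sets of 5 mice (9 members in 4 groups), 2 held a mouse far from its group by Dixon's test, and chance gives about 1 in 20. Tap2 had 61.7 normalised counts in WT/WT replicate 1 of 2 months, against 96.7 to 110 in the others. Cd74 had 174 in 304Q/304Q replicate 3 of 12 months, against 114 to 128 in the others, and that library is among those with choroid plexus RNA. For no member was a difference in genotype effect between ages called, with Cd74 at 0.40 (95% confidence interval −0.25 to 1.06). Of the other genes named, the interaction was 0.70 on the log2 scale for Nfyb (edgeR adjusted p = 0.0316) and −1.17 for Hba-a1 (edgeR adjusted p = 0.0397).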

How the results depend on the processing

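The age calls of H2-K1, B2m and Tap2 held in both genotypes in all 11 other settings and in all 20 fits without 1 mouse. The 1 member called between genotypes at 12 months (Cd74) became 0 with both surrogate variable fits and without the choroid plexus libraries, and with at least 50 counts in every library Cd74 was not tested, so 0 of the others were called. Without single mice the count ran from 0 to 1. Values near 0 turned in sign without a call. Between genotypes at 12 months B2m was −0.0346 (DESeq2) and −0.0422 (edgeR) with surrogate variables and −0.0705 without the choroid plexus libraries, and its interaction was −0.17, −0.18 and −0.15 in the same order, and −0.0515 to 0.096 without single mice. Tap2 at 2 months was −0.0309 without the choroid plexus libraries and −0.0498 to 0.147 without single mice, and H2-K1 at 12 months −0.0743 to 0.0492 without single mice. Tap1 at 12 months was 0.004 with a prior count of 0.5 against −0.002. The cause of these changes was not tested. A replicate block ended 1 call of a member, the rise of Cd74 in WT/WT with age (0.74, adjusted p = 0.0564). Same-numbered mice correlated between −0.323 and 0.551 and 6 of 30 pairs passed 0.1. These correlations cannot show whether same-numbered mice were handled together, and the main fit did not use the numbers as pairs. With means of 21.5 to 40.9 counts, Tap1, H2-Aa, H2-Ab1 and H2-Eb1 had standard errors of 0.26 to 0.38 in the genotype comparisons, which limits what could be seen in them.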
